A study of Mus musculus with 15 samples.

Results

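The 10 genes described here belong to the Notch pathway and are the receptors Notch1, Notch2 and Notch3, the ligands Jag1 and Dll1, the receptor-modifying enzyme Lfng, and the transcriptional targets Hes1, Hey1, Heyl and Nrarp. They were chosen by symbol, and all 10 are among the 42807 symbols of the count table. Their levels were measured by RNA sequencing in C2C12 myotubes, which are multinucleated cells formed when this mouse myoblast line fuses on differentiation. All 15 libraries came from cells after 6 days of differentiation, and each of the 5 groups had 3 libraries. The groups were non-treated cells, a vehicle control (0.1% DMSO), and cells given 20, 100 or 500 µg/mL of Jakyak-gamcho-tang (JGT), with 24 h of treatment. JGT is made by extracting equal weights of Paeoniae radix (peony root) and Glycyrrhizae radix et rhizoma (licorice root) with hot water, and the dose of 500 µg/mL was set from a fitted curve as that with 80% viability. The comparisons ask how expression in these myotubes differed with the extract at each dose.

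Notch signalling passes between touching cells. A ligand on one cell, such as Dll1 or Jag1, pulls on a Notch receptor of its neighbour, the receptor is cut by proteases, and the released intracellular domain joins the DNA-binding protein RBPJ in the nucleus and switches on genes of the Hes and Hey families and Nrarp. In skeletal muscle the pathway is known for keeping satellite cells, the muscle stem cells, undifferentiated, and for restraining the fusion of myoblasts into myotubes.

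Library totals ran from 26012844 to 36854199 expected counts. The member with the fewest counts was Nrarp, with 17.65 to 48 in a library, and the one with the most was Notch2, with 6914.96 to 9696.83. Whether replicate libraries stem from different cultures is not stated, and p-values here reflect only how far the sequenced libraries differ, which can be technical. All titles place the libraries in the same batch. The sample codes of the 9 JGT libraries follow another scheme than those of the 6 control libraries, however, so that a difference between JGT and controls cannot be told apart from one between the code schemes. The comparisons between doses lie within the JGT codes. The samples list DMSO for the vehicle only, so whether the JGT groups carried as much is not known from them. Replicate 2 of the JGT 500 µg/mL group stood apart from the other 2 libraries of that group on the first principal component (17.5, against 37.2 and 39.4), and counts are given below with and without it. C2C12 cultures also keep unfused cells, and in RNA from a whole culture fewer cells of a type and less RNA per cell cannot be told apart.

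Per base of exon, the receptors Notch2 and Notch3 were the most abundant members in the vehicle libraries. As RPKM, which scales counts by exon length and library size, Notch2 stood at 25.5 ± 0.658 (SD, n = 3) and Notch3 at 19.3 ± 0.567. The targets Hes1 (17.1 ± 0.3 RPKM) and Heyl (11.9 ± 0.523 RPKM) followed. Dll1 (6.61 ± 0.337 RPKM), Notch1 (5.61 ± 0.0721), Lfng (4.76 ± 0.0922), Jag1 (3.05 ± 0.214) and Hey1 (2.32 ± 0.18) were lower, and Nrarp was the lowest at 0.415 ± 0.0659. The ranges of neighbours in this order did not overlap over the 3 vehicle libraries. All other levels below are CPM, counts scaled to library size only, and compare a gene only with itself.

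At 500 µg/mL, 7 of the 10 members were lower than in vehicle and 0 were higher, called at an adjusted p below 0.05 in edgeR's quasi-likelihood test. The background in that comparison was 33.3% of the 14461 genes tested, 16.8% lower. The genes that fell were 2 of 3 receptors, both ligands, Lfng, and 2 of 4 targets. The median log2 fold change of the members was -0.46, beside 0.01 over all genes tested. The groups did not overlap for 8 of 10 members, against 40.1% of all tested genes in either direction. These 8 were the 7 lower members and Hes1, which lay above vehicle and was not called. Heyl fell by 45.0%, the most among the members, and Dll1 fell by 40.2%. At 100 µg/mL, 4 members were lower and 1 higher, where 4.31% of all genes were called (2.22% lower and 2.09% higher). At 20 µg/mL Hes1 was the 1 member called, as higher, where 0.325% of all genes were called (0.173% higher). At an unadjusted p below 0.05 in the same test there were 6 members at that dose, beside 10.6% of all genes. These were Hes1 and, with lower values, Notch1, Notch2, Jag1, Dll1 and Lfng. Against non-treated cells Hes1 was again the 1 member called at 20 µg/mL. The comparisons with vehicle share the vehicle libraries.

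**Figure D1:**
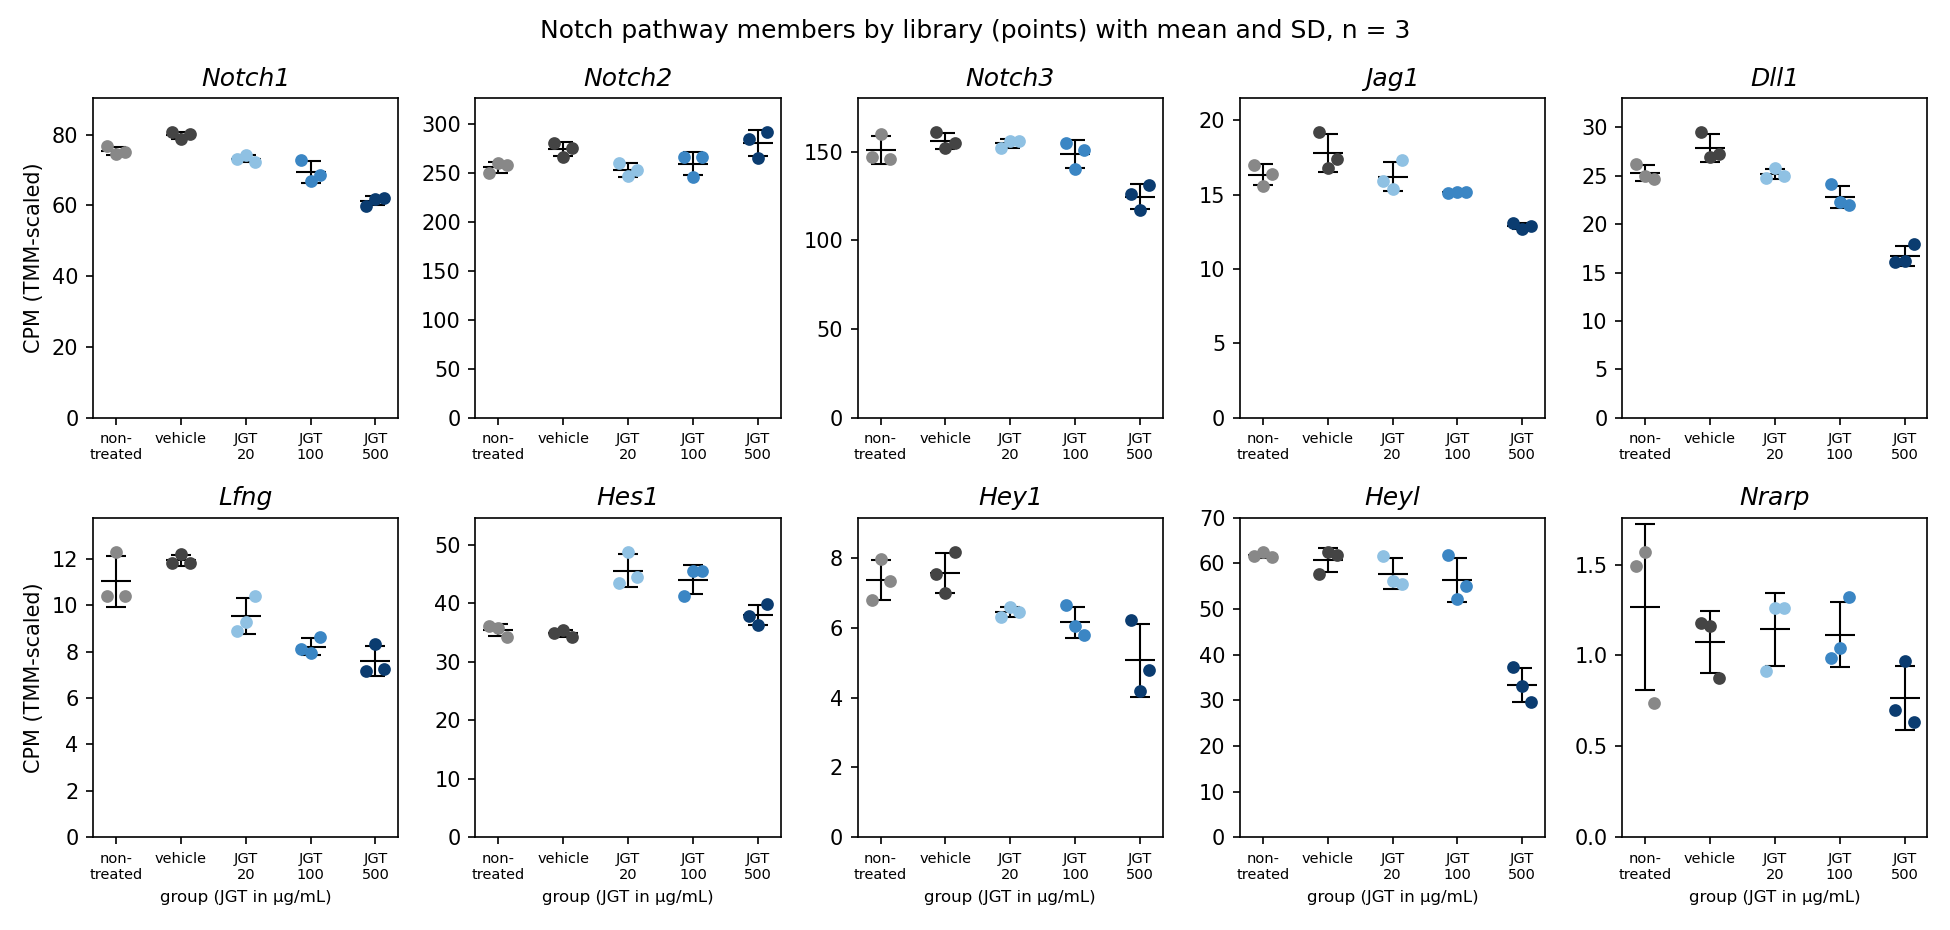
Level of each of the 10 Notch pathway genes in CPM (vertical axis, from 0) in every library, by group (horizontal axis, JGT in µg/mL). Points are libraries, and the long bar and whiskers are the mean and SD of 3. Heyl lay between 29.6 and 37.2 CPM at 500 µg/mL and at 52.2 CPM or above in every other library, while Hes1 was highest at 20 and 100 µg/mL.

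Notch1 encodes a single-pass receptor and lies on the minus strand at chr2:26457903-26516663 (GRCm38, as all positions here). Its level was 76.7, 74.6 and 75.0 CPM in the non-treated libraries and 80.7, 78.7 and 80.1 in vehicle. At 20 µg/mL it was 73.0, 74.3 and 72.4 CPM, at 100 µg/mL 72.9, 67.0 and 68.5, and at 500 µg/mL 59.8, 61.9 and 62.2. Every JGT library lay below every vehicle library, and the 500 µg/mL libraries lay below all others. The log2 fold change against vehicle was -0.38 ± 0.0384 (SE, adjusted p = 1.63e-07) at 500 µg/mL and -0.20 ± 0.038 (adjusted p = 0.00315) at 100 µg/mL. It was -0.12 (adjusted p = 0.204) at 20 µg/mL, where the call was missed. Against non-treated cells the value at 100 µg/mL was -0.12 (adjusted p = 0.0558), so that call depends on the control used.

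Notch3, a receptor also known from vascular smooth muscle, lies at chr17:32120820-32166852 on the minus strand. Its level was 147, 160 and 146 CPM in non-treated and 161, 152 and 155 CPM in vehicle libraries. It was 152, 156 and 156 CPM at 20 µg/mL and 155, 140 and 151 CPM at 100 µg/mL, overlapping vehicle at both doses. At 500 µg/mL it was 126, 117 and 131 CPM, below every other library. Notch3 fell at that dose (log2 fold change -0.33 ± 0.0466, adjusted p = 1.76e-05), while the values at 20 and 100 µg/mL were -0.02 (adjusted p = 0.93) and -0.07 (adjusted p = 0.479).

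Notch2, the most abundant receptor, lies at chr3:98013527-98150361 on the plus strand. Its level was 250, 261 and 258 CPM in non-treated, 281, 267 and 276 CPM in vehicle, and 261, 247 and 253 CPM at 20 µg/mL. It was 267, 246 and 267 CPM at 100 µg/mL and 285, 266 and 292 CPM at 500 µg/mL, where it overlapped vehicle. The log2 fold change at 500 µg/mL was 0.03 ± 0.0412 (adjusted p = 0.548), while Notch1 and Notch3 were called lower in the same comparison. Against non-treated cells, however, Notch2 was higher at that dose (log2 0.14, adjusted p = 0.0163).

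The ligands are Dll1, which lies at chr17:15367354-15376872 on the minus strand, and Jag1, at chr2:137081456-137116644 on the minus strand. In developing muscle Dll1 is made by differentiating cells and signals to neighbouring progenitors. The level of Dll1 was 26.2, 25.0 and 24.7 CPM in non-treated and 29.5, 26.9 and 27.2 CPM in vehicle libraries. With JGT it was 24.8, 25.8 and 25.0 CPM at 20 µg/mL, 24.1, 22.3 and 22.0 CPM at 100 µg/mL, and 16.1, 16.2 and 17.9 CPM at 500 µg/mL. The 3 JGT groups did not overlap one another for Dll1, and the group means fell from 25.2 ± 0.536 (SD, n = 3) to 22.8 ± 1.16 and 16.7 ± 1.02 CPM. Against vehicle Dll1 fell by 0.29 ± 0.0551 on the log2 scale at 100 µg/mL (adjusted p = 0.00282) and by 0.74 ± 0.0576 at 500 µg/mL (adjusted p = 3.43e-09). The value at 20 µg/mL was -0.15 (adjusted p = 0.343). Against non-treated cells, Dll1 at 100 µg/mL was at -0.15 (adjusted p = 0.098), which is not called.

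Jag1, the ligand mutated in Alagille syndrome, stood at 17.0, 15.6 and 16.4 CPM in non-treated and 19.2, 16.8 and 17.4 CPM in vehicle libraries. It was 15.9, 15.4 and 17.3 CPM at 20 µg/mL, 15.1, 15.2 and 15.2 CPM at 100 µg/mL and 13.1, 12.7 and 12.9 CPM at 500 µg/mL. The 500 µg/mL libraries lay below all others and differed by little among themselves (12.9 ± 0.231 CPM, SD, n = 3). Jag1 fell by 0.46 ± 0.0632 on the log2 scale against vehicle at 500 µg/mL (adjusted p = 9.88e-06). At 100 µg/mL it fell by 0.23 ± 0.0613 (adjusted p = 0.0351), a call that held in 5 of 13 alternative settings. It was lost against non-treated cells (-0.10, adjusted p = 0.354), with DESeq2 (adjusted p = 0.0669) and with no low-count filter (adjusted p = 0.0568). It was also lost without replicate 1 of the vehicle (-0.17, adjusted p = 0.197), without vehicle replicate 3 (-0.25, adjusted p = 0.0778), and without the JGT 100 library 1 (adjusted p = 0.108), 2 (adjusted p = 0.101) or 3 (adjusted p = 0.0935).

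Lfng encodes Lunatic fringe, a Golgi enzyme that adds N-acetylglucosamine to O-linked fucose on Notch receptors and so changes which ligands they answer to. The gene lies at chr5:140607320-140615545 on the plus strand. It is shown with its upstream sequence because, of the 7 members matched to a RefSeq promoter window (8 windows of 300 bases, from 250 before to 50 after a start; Hes1, Hey1 and Heyl were not matched), it alone holds the letters GTGGGAA, a core recognised by RBPJ. Both strands were searched. GTGGGAA is found in 6.38% of 32851 RefSeq windows, the shorter TGGGAA in 25.6% and the E-box CACGTG in 7.15%. In the 200 bases at chr5:140607091-140607290 (plus strand, GRCm38.p6), capitals mark these motifs: the run of 10 capitals joins CACGTG with GTGGGAA, which overlaps it and begins 109 bases before the start, and the earlier capitals are TGGGAA on the opposite strand.
Lfng: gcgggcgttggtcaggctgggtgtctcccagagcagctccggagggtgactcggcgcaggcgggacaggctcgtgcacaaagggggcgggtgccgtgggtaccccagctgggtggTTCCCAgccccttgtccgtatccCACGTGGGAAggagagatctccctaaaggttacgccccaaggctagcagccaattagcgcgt
A match of letters is a description and shows no binding. Of the other windows, that of Nrarp holds CACGTG, 108 bases before its start.

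The level of Lfng was 10.4, 12.3 and 10.4 CPM in non-treated and 11.8, 12.2 and 11.8 CPM in vehicle libraries. It was 8.89, 9.29 and 10.4 CPM at 20 µg/mL, 8.12, 7.92 and 8.61 CPM at 100 µg/mL, and 7.18, 8.32 and 7.27 CPM at 500 µg/mL. Every JGT library lay below every vehicle library, and the 100 and 500 µg/mL libraries overlapped each other. Lfng fell by 0.54 ± 0.0841 on the log2 scale at 100 µg/mL (adjusted p = 0.000605) and by 0.65 ± 0.086 at 500 µg/mL (adjusted p = 6.81e-06). At 20 µg/mL it was at -0.33 (adjusted p = 0.109), not called. Against non-treated cells it was also lower at 100 µg/mL (-0.42, adjusted p = 0.00255), which makes it, with Hes1, one of the 2 members called at that dose against both controls.

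Among the targets, Heyl and Hey1 encode repressors of the Hairy family that satellite cells need to stay undifferentiated. Heyl lies at chr4:123233556-123249875 on the plus strand. Its level was 61.5, 62.4 and 61.4 CPM in non-treated and 57.6, 62.5 and 61.9 CPM in vehicle libraries. It was 61.6, 56.2 and 55.4 CPM at 20 µg/mL and 61.7, 52.2 and 55.0 CPM at 100 µg/mL, overlapping vehicle at both doses. At 500 µg/mL it was 37.2, 33.2 and 29.6 CPM, far below every other library. The log2 fold change against vehicle was -0.86 ± 0.0721 at 500 µg/mL (adjusted p = 4.26e-08), and the values at 20 and 100 µg/mL were -0.07 (adjusted p = 0.763) and -0.11 (adjusted p = 0.494). From 100 to 500 µg/mL alone Heyl fell by 0.75 ± 0.0716 (adjusted p = 5.05e-07).

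Hey1 lies at chr3:8663359-8667256 on the minus strand and was measured at 136 to 243 counts a library. It stood at 6.81, 7.97 and 7.35 CPM in non-treated and 7.54, 7.02 and 8.19 CPM in vehicle libraries. It was 6.33, 6.60 and 6.46 CPM at 20 µg/mL, 6.65, 6.05 and 5.79 CPM at 100 µg/mL and 6.24, 4.19 and 4.80 CPM at 500 µg/mL. Every JGT library lay below every vehicle library, but the 500 µg/mL libraries spread widely and overlapped those of 100 µg/mL. Hey1 fell by 0.59 ± 0.116 on the log2 scale at 500 µg/mL (adjusted p = 0.000577). It was at -0.23 (adjusted p = 0.47) at 20 µg/mL and -0.30 (adjusted p = 0.152) at 100 µg/mL.

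Hes1, a repressor that answers to Notch and to several other signals, lies at chr16:30064384-30067796 on the plus strand. Its level was 36.1, 35.8 and 34.2 CPM in non-treated and 35.0, 35.4 and 34.2 CPM in vehicle libraries. It was 43.4, 48.8 and 44.5 CPM at 20 µg/mL, 41.2, 45.5 and 45.5 CPM at 100 µg/mL, and 37.8, 36.3 and 39.8 CPM at 500 µg/mL. All JGT libraries lay above all control libraries, and the lowest 2 doses lay above the highest. Hes1 rose by 0.39 ± 0.052 on the log2 scale at 20 µg/mL (adjusted p = 0.00112), the 5th smallest p of the 14461 genes, and by 0.34 ± 0.0517 at 100 µg/mL (adjusted p = 0.000475). At 500 µg/mL the value was 0.12 ± 0.0527 (adjusted p = 0.0833), and without replicate 2 of that group it was 0.15 (adjusted p = 0.0327). Hes1 was also higher than in non-treated cells at 20 µg/mL (0.37, adjusted p = 4e-04) and 100 µg/mL (0.32, adjusted p = 0.000332).

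Nrarp encodes a small ankyrin-repeat protein that is switched on by Notch and dampens it, and lies at chr2:25180758-25183339 on the plus strand. It was 1.49, 1.57 and 0.739 CPM in non-treated, 1.18, 1.16 and 0.876 CPM in vehicle and 0.912, 1.26 and 1.26 CPM at 20 µg/mL. It was 0.985, 1.04 and 1.32 CPM at 100 µg/mL and 0.701, 0.967 and 0.635 CPM at 500 µg/mL, overlapping vehicle. The value against vehicle at 500 µg/mL was -0.46 ± 0.272 (adjusted p = 0.206), with an SE far above that of Dll1 (0.0576) in the same comparison. Against non-treated cells it was -0.71 (adjusted p = 0.0455).

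Exons of 5 members overlap another annotated gene, and whether the counting used strand is not stated. The overlap is 2051 of the 2582 exonic bases of Nrarp (Gm38287, opposite strand) and 1068 of 14232 for Notch1 (0610009E02Rik, opposite strand, 6.47 to 76.24 counts a library). It is 867 bases for Dll1 (A930024N18Rik, opposite strand, 8.86 to 25.79 counts), 541 for Notch2 (Gm42820, same strand) and 488 for Notch3 (Gm17276, opposite strand, 3.08 to 22.72 counts). Gm42820 and Gm38287 are not listed under these symbols in the table. Against the 481.14 to 898.41 counts of Dll1 and the 1763.05 to 2642.16 of Notch1, the partners' own counts were small.

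Between doses, 0 members were called from 20 to 100 µg/mL by edgeR, where 0.429% of all genes were called, and 0 by DESeq2. At an unadjusted p below 0.05 there were 2 members, beside 7.54% of all genes. From 100 to 500 µg/mL 6 members were lower and 0 higher, where 19.7% of all genes were called (10.7% lower). These were Notch1 (-0.18, adjusted p = 0.00216), Notch3 (-0.25, adjusted p = 0.000594), Jag1 (-0.23, adjusted p = 0.0131), Dll1 (-0.45, adjusted p = 9.61e-06), Hes1 (-0.22, adjusted p = 0.00479) and Heyl. Lfng was not among them (-0.11, adjusted p = 0.405). From 20 to 500 µg/mL 8 members were lower and 1 higher, where 23.3% of all genes were called (12.2% lower and 11.1% higher). The one higher was Notch2 (0.15 ± 0.0412, adjusted p = 0.0115), and Hes1 was among the lower ones (-0.26 ± 0.0513, adjusted p = 0.00065). The calls of Hey1 (-0.35, adjusted p = 0.0339) and Notch2 were lost in several settings, including the fit of only these 2 groups (Hey1 adjusted p = 0.115, Notch2 adjusted p = 0.0703). The Hey1 call was also lost on leaving out JGT 500 replicate 2 (-0.23, adjusted p = 0.121) or 3 (-0.32, adjusted p = 0.0996), or any single JGT 20 library (adjusted p from 0.0618 to 0.0841). The Notch2 call was lost without JGT 20 replicate 2 (adjusted p = 0.0681) or JGT 500 replicate 3 (adjusted p = 0.0667), and that of Lfng (-0.32, adjusted p = 0.0101) without JGT 20 replicate 3 (-0.26, adjusted p = 0.0607). Of these 3 comparisons, the last 2 share the 500 µg/mL libraries.

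**Figure D2:**
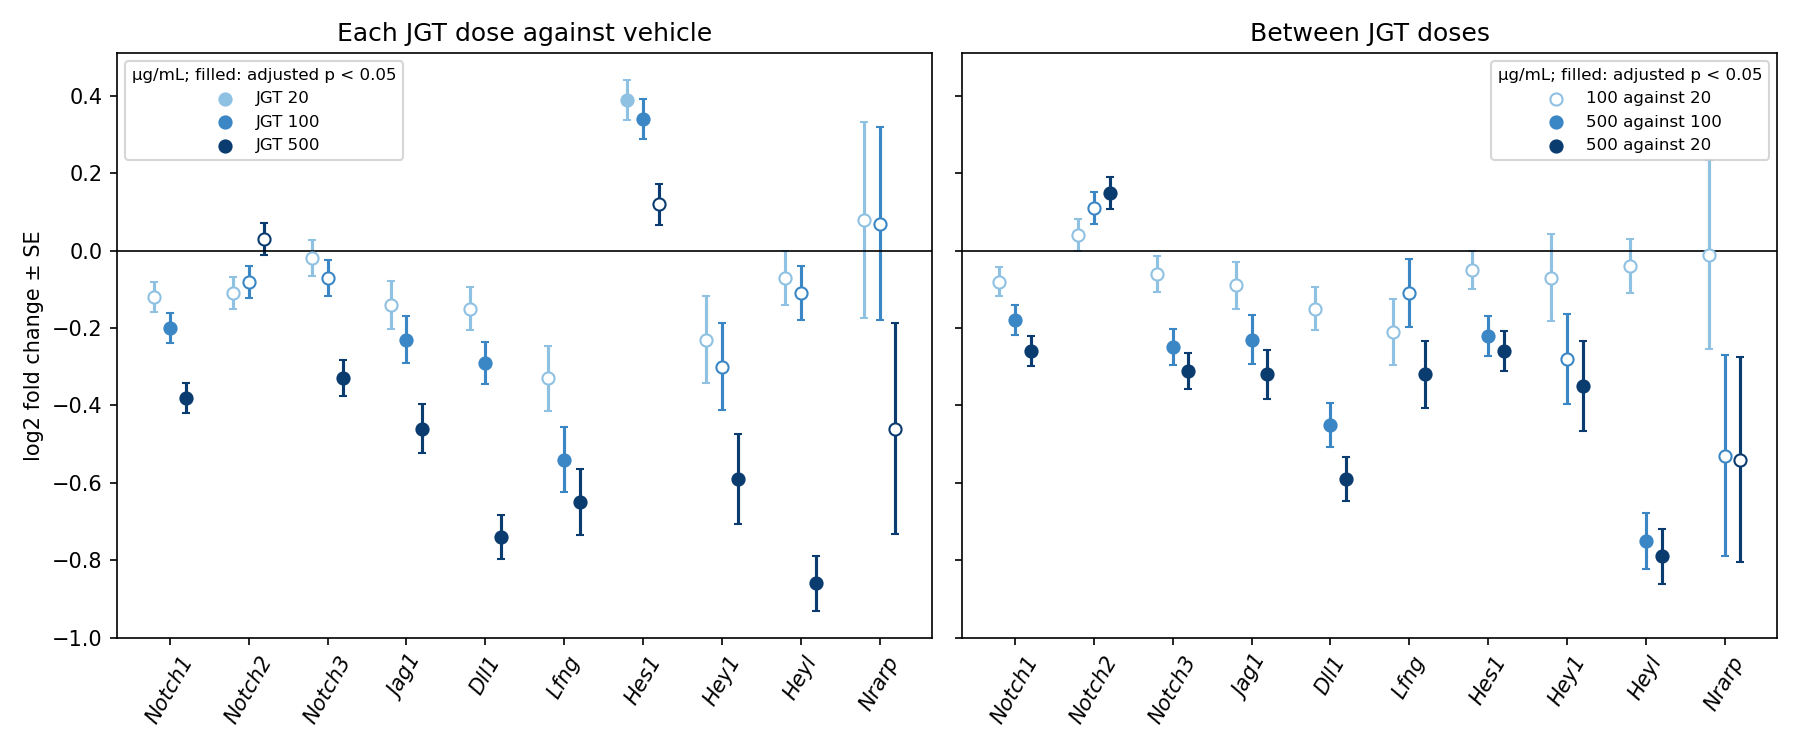
Log2 fold change with its SE for each member (vertical axis), with each JGT dose against vehicle on the left and the doses against each other on the right. Filled points passed an adjusted p of 0.05 and open ones did not. At 500 µg/mL against vehicle 7 points are filled and below 0, and Hes1 is filled above 0 at 20 and 100 µg/mL.

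The vehicle alone gave no call among the members against non-treated cells by edgeR or DESeq2 (0 of 10), where 1.31% of all genes were called by edgeR. At an unadjusted p below 0.05 there were 3 members, beside 16.7% of all genes. Their log2 fold changes ran from -0.25 for Nrarp to 0.14 for Dll1. With non-treated cells as the control, 1 member was called at 20 µg/mL (background 3.11%), 2 at 100 µg/mL (background 9.13%) and 9 at 500 µg/mL (background 31.8%), of which 8 were lower. Without JGT 500 replicate 2, 8 members were called at 500 µg/mL against vehicle, because Hes1 was added as higher, and the share of all genes called rose to 43.3%. In the same setting 21 genes of the wider list described below were called, against 17 with that library. For 500 against 100 µg/mL 7 members were called without it, beside 34.1% of all genes, and for 500 against 20 µg/mL 9 members, beside 35.4%.

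Across the 15 libraries, several members had similar patterns. Pearson's r on log2 CPM was 0.97 between Notch1 and Dll1, 0.94 between Jag1 and Dll1, 0.93 between Notch3 and Dll1 and 0.90 between Dll1 and Heyl. Hes1 had r between -0.49 (with Lfng) and 0.16 (with Nrarp), and Notch2 between -0.57 and -0.17. These are descriptions, since libraries of 1 group share its treatment and are not independent. Among 9870 other genes, those most like Heyl were Endod1 (r = 0.976), Igfbp3 (0.975) and Rhoj (0.974), and those most like Dll1 were Tln2 (0.976), Fhl1 (0.974) and Mest (0.973). Mest was also the gene most like Notch1 (0.979). Notch3 was followed most closely by Tbc1d4 (0.963), Jag1 by Hs2st1 (0.947), Lfng by Gadd45b (0.951) and Hey1 by Prr33 (0.927). For Hes1 the nearest were E2f2 (0.911), Nr2f1 (0.866) and Ubr2 (0.842), for Notch2 Rdh10 (0.848), and for Nrarp Fam149a (0.859).

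The rest of the pathway was read from a list of 54 further genes, of which 43 had enough counts for testing. At 500 µg/mL 10 of them were higher and 7 lower than in vehicle, that is 39.5% beside the background of 33.3%, with a median log2 fold change of 0.02. The called genes of this list thus lay on both sides of 0. The 11 genes left out had at most 8 counts in any library and include the ligands Dll3, Dll4 and Dlk1 and the targets Hes5, Hes7 and Hey2.

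**Figure D3:**
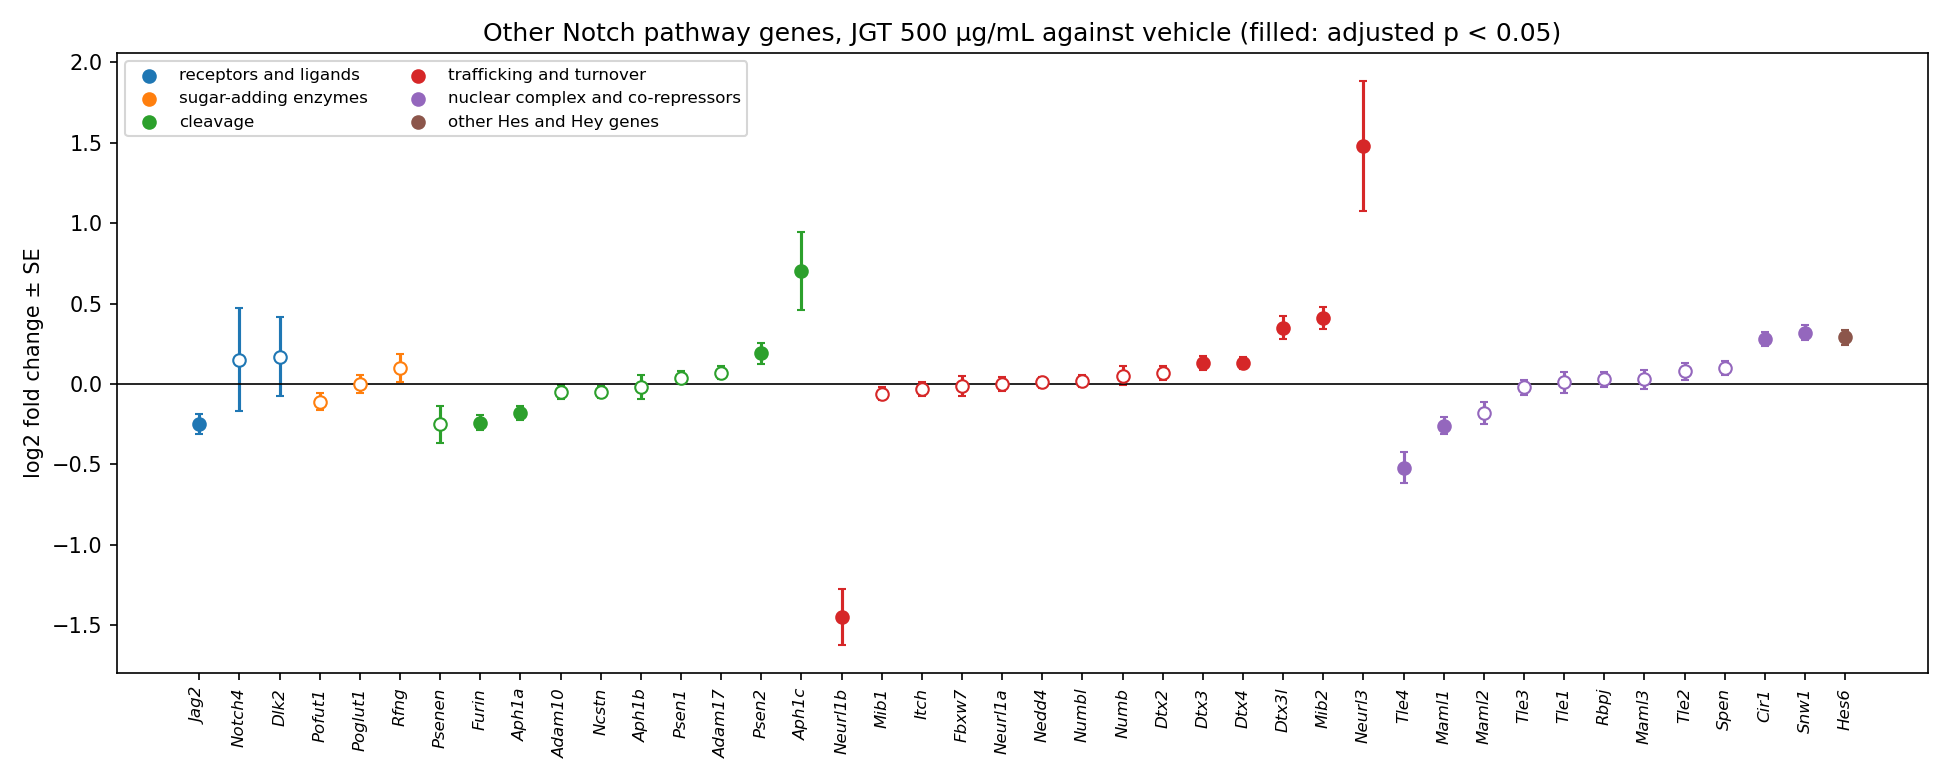
Log2 fold change at 500 µg/mL against vehicle, with its SE (vertical axis), for 42 of the 43 tested genes of the wider Notch pathway list, coloured by role. Filled points passed an adjusted p of 0.05. Neurl1b is the lowest point at -1.45 and Neurl3 the highest at 1.48, and 16 points are filled. Neurl3 had a low level, at 0.215 ± 0.0807 CPM in vehicle and 0.61 ± 0.253 CPM at 500 µg/mL (SD, n = 3).

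Neurl1b, a ubiquitin ligase of the Neuralized family that acts on Notch ligands, changed most among those with at least 1 CPM. It was 3.82, 2.66 and 3.88 CPM in vehicle and 1.23, 1.03 and 1.59 CPM at 500 µg/mL, without overlap, a log2 fold change of -1.45 ± 0.173 (adjusted p = 1.81e-06). Mib2, another ligase for Notch ligands, rose from 33.2 ± 1.59 to 44.2 ± 5.26 CPM (log2 0.41 ± 0.0685, adjusted p = 0.000133). Hes6, a family member that counters Hes1 and favours muscle differentiation, rose from 127 ± 4.2 to 155 ± 4.07 CPM (log2 0.29 ± 0.0461, adjusted p = 7.19e-05). Snw1, a transcriptional co-regulator that binds the Notch intracellular domain, rose from 82.7 ± 2.38 to 103 ± 5.87 CPM (log2 0.32, adjusted p = 1.85e-05). Cir1, a co-repressor that binds RBPJ, rose from 41.1 ± 1.6 to 49.7 ± 1.78 CPM (log2 0.28, adjusted p = 0.00011).

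By role, 1 of 3 tested receptors and ligands was called, the ligand Jag2 (-0.25, adjusted p = 0.00515), and 0 of 3 sugar-adding enzymes. Of the 10 cleavage genes, the γ-secretase subunits Psen2 (0.19, adjusted p = 0.0348) and Aph1c (0.70, adjusted p = 0.0315) were higher. The groups overlapped for Psen2, and Aph1c was low, at 0.889 CPM in vehicle and 1.45 CPM at 500 µg/mL. Aph1a (-0.18, adjusted p = 0.00403) and the receptor convertase Furin (-0.24, adjusted p = 0.000551) were lower. Of 14 genes of trafficking and turnover, 5 were higher and 1, Neurl1b, lower. Of 12 nuclear genes 2 were higher and 3 lower, among the lower ones Maml1 (-0.26), the co-activator of the Notch complex, and Tle4 (-0.52), a Groucho co-repressor. The shares called were 40% for cleavage, 42.9% for trafficking and turnover and 41.7% for nuclear genes, near the 33.3% of all genes. RBPJ itself (Rbpj) was at 0.03 ± 0.0475 (adjusted p = 0.684), at 41.7 ± 1.6 CPM in vehicle and 42.5 ± 1.88 CPM at 500 µg/mL.

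At 20 µg/mL 0 of the 43 wider genes were called by edgeR and 0 by DESeq2, with 7 at an unadjusted p below 0.05, beside 10.6% of all genes. At 100 µg/mL 4 were called, 9.3% of the 43 beside 4.31% of all genes. Snw1 (0.17, adjusted p = 0.0414) and Dtx3l (0.26, adjusted p = 0.0433) were higher and Maml1 (-0.19, adjusted p = 0.0436) and Neurl1b (-0.54, adjusted p = 0.0497) lower. Between 0 and 2 of the 43 were called at that dose when any single library was left out, and 0 without vehicle replicate 1, JGT 100 replicate 1 or JGT 100 replicate 2. From 100 to 500 µg/mL 7 were higher and 4 lower, which is 25.6% of the 43 beside 19.7% of all genes, with Neurl1b among the lower ones (-0.91). Those counts moved from 11 in all to 18 without JGT 500 replicate 2 and to between 3 and 6 without JGT 500 replicates 1 or 3 or any JGT 100 library. In the vehicle comparison Neurl1a was the single gene called, 2.33% of the 43 beside 1.31% of all genes (0.22 ± 0.0465, adjusted p = 0.0215), and that call was lost on leaving out any 1 library of the 2 groups other than non-treated replicate 2.

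Marker levels were read beside these results. The summed level of 10 markers of dividing cells was 470 to 485 CPM in vehicle, 437 to 447 at 20 µg/mL, 395 to 399 at 100 µg/mL and 247 to 256 at 500 µg/mL. All 10 were called lower at 500 µg/mL against vehicle, with a median log2 fold change of -1.28. In that comparison 33.3% of all genes were called (16.8% lower). The sum of the dividing markers was also lower in vehicle than in non-treated libraries (563 to 572 CPM), where 4 of 10 were called, beside 1.31% of all genes. The smooth muscle and pericyte list went from 3290 to 3450 CPM in vehicle down to 2070 to 2130 CPM at 500 µg/mL, and its 4 tested genes fell. Most of that sum is Acta2 (2710 ± 75.6 CPM in vehicle, SD, n = 3), which myoblasts also make, as they do Tagln (303 ± 5.36 CPM). Acta2 (-0.68), Tagln (-1.45), Cnn1 (-1.93) and the pericyte marker Pdgfrb (337 ± 7.58 CPM in vehicle, -0.23) were all called lower at 500 µg/mL. Cnn1 had a low level, at 1.49 ± 0.0878 CPM in vehicle and 0.384 ± 0.116 CPM at 500 µg/mL. Myh11 and Rgs5, the other 2 genes of the list, were at or near 0 in every group. Myotube markers (10 of 12 found under their symbols) summed to 15500 to 16500 CPM in vehicle and 15400 to 16600 CPM at 500 µg/mL. Most of that sum is Acta1, Myh3 and Des. Of the single markers 4 were called higher and 3 lower, beside 33.3% of all genes called. The lower ones were Ckm (-0.48), Myh8 (-0.38) and Myh3 (-0.18, adjusted p = 0.0455, groups overlapping). Means above those of vehicle at 500 µg/mL were found for Myog (965 against 807 CPM), Tnni2 (435 against 351) and Des (4350 against 3560). Those of Tnnt3 (1030 against 942 CPM) and Ryr1 (691 against 625) were also above vehicle. Acta1, not called lower, was at 4420 against 4890 CPM.

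The markers of undifferentiated cells summed to 1890 to 1940 CPM in vehicle and 1850 to 2060 CPM at 500 µg/mL. Most of that sum is Itga7 (1310 ± 23.3 CPM in vehicle and 1320 ± 102 CPM at 500 µg/mL), so it says little about the others. Of the single markers 3 were called higher and 3 lower, beside 33.3% of all genes called. The higher ones were Gas1 (0.76, adjusted p = 6.03e-11), Spry1 (0.47, adjusted p = 1.54e-06) and Rbl2 (0.15, adjusted p = 0.00485). The lower ones were Vcam1 (-0.53, adjusted p = 5.07e-09), Cd34 (-0.51, adjusted p = 3.03e-06) and Pax7 (-0.30, adjusted p = 0.00313), the transcription factor that defines satellite cells. Calcr was at 0 in every library. Endothelial markers summed to 2.01 to 2.86 CPM over the JGT libraries and 2.12 to 2.40 in vehicle, with Emcn at 0 in all. The part of the marker changes in the fall of Notch1, Notch3, Jag1, Dll1, Lfng, Hey1 and Heyl was not tested.

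**Figure D4:**
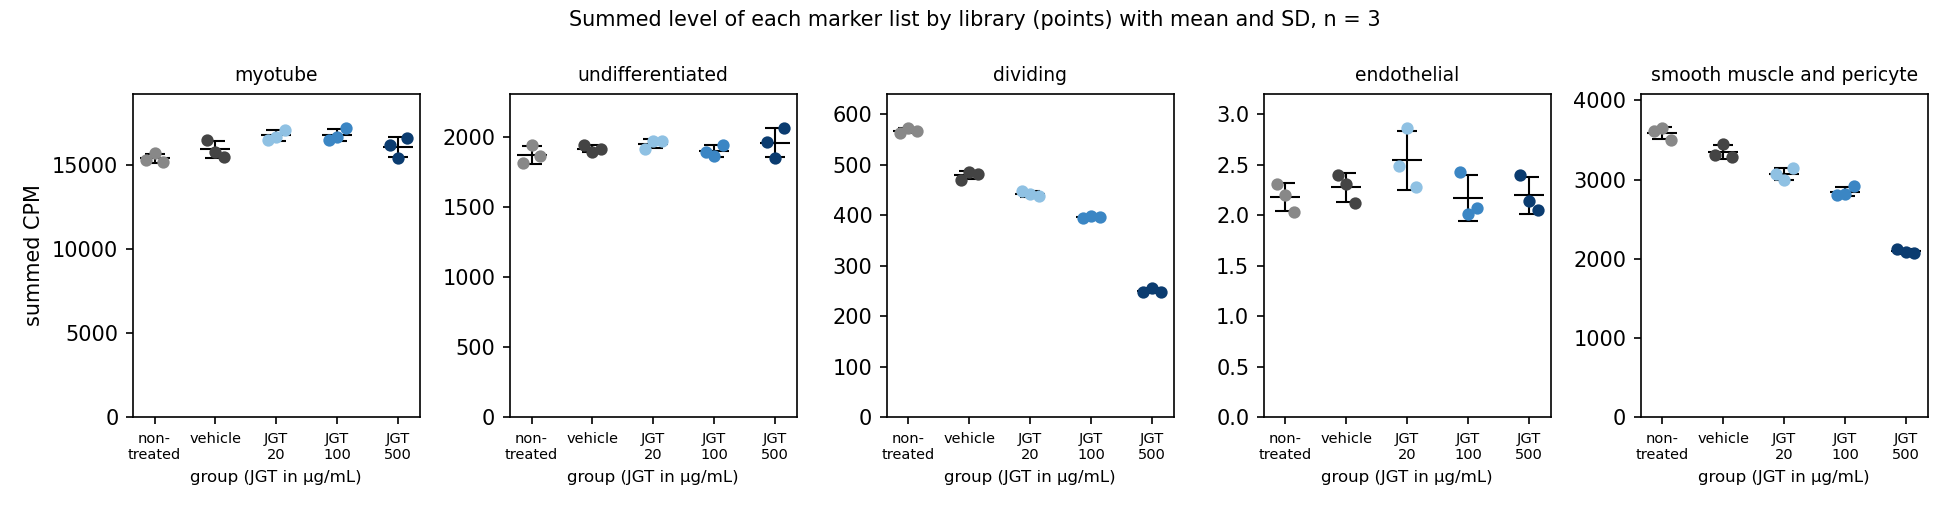
Summed CPM of each marker list (vertical axis, from 0) in every library, by group (horizontal axis, JGT in µg/mL). Points are libraries with the mean and SD of 3. Markers of dividing cells go from 470 to 485 CPM in vehicle to 247 to 256 CPM at 500 µg/mL, while the ranges of the myotube and undifferentiated sums overlap between these groups. Most of the myotube sum is Acta1, Myh3 and Des, and most of the undifferentiated sum is Itga7.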

How the data were processed

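RNA was made into directional mRNA libraries and sequenced in read pairs of 100 bp, per the labels' protocols. Named in the submitters' processing notes are the genome GRCm38 (mm10), STAR (2.7.3a), RSEM (version 1.3.3), FastQC (version 0.11.9) and Trim Galore (version 0.6.5). Their order and roles, the annotation and the strand option were not given in the sources used. The authors deposited expected counts per gene symbol, not normalized, of which 9.34% were not whole (tolerance 0.005), and these were rounded to whole numbers.

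Genes were filtered with filterByExpr, which kept 14461 of 42807 symbols (19006 were 0 in all libraries), and scaled by TMM (factors 0.988 to 1.02). All 15 libraries entered 1 robust edgeR 4.0.16 quasi-likelihood fit (R 4.3.3) with a mean per group and 10 residual degrees of freedom (common dispersion 0.00282, a coefficient of variation of 5.31%). Tests were two-sided, and a gene was called at a Benjamini-Hochberg adjusted p below 0.05 over all genes tested. CPM values are TMM-scaled, RPKM used exon lengths of GENCODE M21, and promoter windows are from RefSeq (GRCm38.p6). Every adjusted p in the text is from that test unless DESeq2 1.42.0 is named.

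The members, lists, tests and alternatives were chosen with earlier results of these data known. By the naming rule the text describes all 10 members and, per comparison, up to 6 called genes of the wider list with the smallest p and a mean of at least 1 CPM, and any single gene that makes up a count of 5 or fewer, and for each member up to 3 genes of most similar pattern (mean of at least 5 CPM). 1 gene that the rule names is counted in the lists but not reported here. Psen2, Aph1a, Aph1c, Tle4, Rbpj, and single genes of the marker lists, and Neurl3 in a caption, were named after their values were seen. Alternatives were RLE factors, library totals, DESeq2, no filter, only the 2 groups compared, a replicate block, each library left out, and non-treated cells as control. Same-numbered libraries of different groups did not deviate together as a whole (30 pairs, r from -0.324 to 0.119). Same-numbered JGT 500 and JGT 100 libraries had r of 0.073, 0.106 and 0.116. The same-numbered pairs of either group with JGT 20 ran from -0.21 to 0.058. Libraries of a group differed by more than sampling noise (mean chi-square per gene 2 to 34.9 over 15 pairs). On simulated data with 14370 genes, the test for 20 µg/mL against vehicle recovered 49.3% of genes changed by a log2 of 0.3, and 10.7% of its calls were not changed genes. For 500 µg/mL (14352 genes) these shares were 59.7% and 5.48%. The simulations changed a small set of genes in a single group and took their dispersions from these same libraries. Far fewer genes were changed than were called at 500 µg/mL, so these shares do not describe the real comparison at that dose.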

Additional observations from a re-analysis of the deposited data

How the results depend on the processing

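Of 895 member values under alternative settings, 864 kept their side of the threshold, 20 lost the call and 11 gained it. Of the 864, 846 also kept their sign and 18, not called either way, changed it. No called value changed sign. The 7 calls at 500 µg/mL against vehicle held in all 13 settings, as did those of Hes1 at 20 µg/mL (log2 0.33 to 0.42) and at 100 µg/mL (0.31 to 0.38) and of Lfng at 100 µg/mL (-0.57 to -0.42). With only the 2 groups in the fit, members called at 20 µg/mL went from 1 to 3, adding Notch2 (adjusted p = 0.0482) and Lfng (adjusted p = 0.0171). With non-treated cells as control, those at 100 µg/mL went from 5 to 2. The cause was not tested. Leaving out 1 library gave 0 members for vehicle against non-treated, 1 at 20, 4 to 5 at 100 and 7 to 8 at 500 µg/mL against vehicle, 0 for 100 against 20, 6 to 7 for 500 against 100 and 7 to 9 for 500 against 20 µg/mL. Whether the replicate numbers stand for more than a label is not stated, though the JGT sample codes group the doses by number. Of 15 libraries, 3 correlated best with their own number. With a replicate block, the members called were 0, 1, 5, 7, 0, 7 and 9 in the same order.

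Counts over all genes moved more. Called genes went from 189 to 325 with DESeq2 and 1031 with only the 2 groups for vehicle against non-treated (36 to 88 without 1 library), and from 47 to 73 without a filter, 103 with DESeq2, 330 with only the 2 groups and 450 against non-treated cells for 20 µg/mL (18 to 27 without 1 library other than JGT 20 replicate 3). For 100 µg/mL they went from 623 to 1369 with only the 2 groups and 1320 against non-treated cells (315 to 409 without 1 library), and for 100 against 20 µg/mL from 62 to 191 with only the 2 groups (19 to 41 without 1 library). Without JGT 500 replicate 2, they went from 2853 to 4989 for 500 against 100 µg/mL and from 3369 to 5165 for 500 against 20 µg/mL, and with only the 2 groups to 1313 and 1982. Without JGT 100 replicate 2 the first of these was 1880. A fit of the 9 JGT libraries with a replicate block, chosen after seeing the data, called 0, 6 and 9 members in the 3 dose comparisons and 35 genes for 100 against 20 µg/mL. Depth limits Nrarp, with at most 48 counts a library.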
